A study of Arabidopsis thaliana with 13 samples.

Results

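The *MIR170* and *MIR171* loci are the *Arabidopsis thaliana* miRNA genes that give rise to the miR170/miR171 family, whose known targets are *SCARECROW-LIKE* (*SCL*) transcription factor genes. They were taken from the deposited miRNA-seq table by name, as ath-MIR170, ath-MIR171a, ath-MIR171b and ath-MIR171c, and are 4 of its 325 miRNA genes. All plants carried the pAP1:AP1:GR transgene in the *ap1 cal* mutant background and the Landsberg ecotype, the untreated ones included. Without induction such plants form masses of inflorescence-like meristems, and activating AP1-GR with dexamethasone (DEX) starts flower development in many meristems at the same time. DEX treatment gave 3 inflorescence libraries of day 2, 2 of day 4 and 3 of day 8. Untreated plants gave 2 inflorescence libraries of day 0 and 3 of vegetative seedlings. The AP1-GR protein is made where the *AP1* promoter is active, so the stages are those of an induced mutant and not of wild-type flowers. The labels give day 2 replicate 1 a time of 0 days, but its title and its DEX treatment place it on day 2, where it was kept.

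A miRNA is cut from the hairpin of its precursor as a 5p and a 3p arm, and in plants the mature miRNA pairs along nearly its whole length with the mRNA that it directs to cleavage. miR171 targets the *SCL6* genes, also known as *HAIRY MERISTEM* (*HAM*) or *LOST MERISTEMS* (*LOM*), which encode GRAS-family transcription factors. These factors keep the shoot meristem undifferentiated and act in the outgrowth of branches, and plants with excess miR171 resemble *scl6* mutants. The study placed *MIR170* and *MIR171* loci in predicted feed-forward loops, in which a floral MADS-domain factor binds both a miRNA gene and the target of that miRNA. The question for these loci is therefore how their abundance ran over the stages of flower development.

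The mature arms of the 4 loci show which reads the table can assign to 1 locus. Each is printed 5′ to 3′ from the RefSeq annotation and sequence of TAIR10.1, with the seed (bases 2 to 8) in capitals.
miR170-3p: uGAUUGAGccgugucaauauc
miR171a-3p: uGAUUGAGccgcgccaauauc
miR171b-3p and miR171c-3p: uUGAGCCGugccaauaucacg
miR170-5p and miR171a-5p: uAUUGGCCugguucacucaga
miR171b-5p: aGAUAUUAgugcgguucaauc
miR171c-5p: aGAUAUUGgugcgguucaauc
By the seed, the 3p arms fell into a pair (miR170-3p and miR171a-3p) and a second pair, miR171b-3p and miR171c-3p, which are the same molecule. Relative to miR171a-3p, miR170-3p carried C12U and C14U, counted from base 1 at the 5′ end. miR171b-3p began 3 bases further into the same sequence, and over the 18 bases that align it differed from miR171a-3p by C12U (position in miR171a-3p). The 5p arms of *MIR171b* and *MIR171c* differed by A8G, inside the seed, whereas those of *MIR170* and *MIR171a* were identical.

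The target site is shown because it is the exact complement of miR171a-3p and so also decides where that arm maps. In TAIR10.1 the same 21 bases lay in a coding exon of 3 genes, all on the minus strand. These were *SCL6-II* (AT2G45160, annotated as *HAM1*, chromosome 2, 18619128 to 18619148), *SCL6-III* (AT3G60630, *HAM2*, chromosome 3, 22411544 to 22411564) and *SCL6-IV* (AT4G00150, *HAM3*, chromosome 4, 58411 to 58431). The site is in capitals with its flanking bases in lower case.
SCL6-II: aggGATATTGGCGCGGCTCAATCAcca
SCL6-III: aggGATATTGGCGCGGCTCAATCAcaa
SCL6-IV: gggGATATTGGCGCGGCTCAATCAaca
miR171a-3p formed 21 Watson-Crick pairs with this site. miR170-3p formed 19 and 2 G:U pairs. miR171b-3p and miR171c-3p formed 18 and 1 G:U pair, with 2 bases unpaired. These are matches of letters and not measurements of cleavage.

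The precursors are shown with both arms in capitals, because the table counts reads by locus. They are in DNA letters of TAIR10.1 on the strand of the gene.
MIR170: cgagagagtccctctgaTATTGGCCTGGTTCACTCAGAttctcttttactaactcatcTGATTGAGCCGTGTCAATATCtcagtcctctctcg
MIR171a: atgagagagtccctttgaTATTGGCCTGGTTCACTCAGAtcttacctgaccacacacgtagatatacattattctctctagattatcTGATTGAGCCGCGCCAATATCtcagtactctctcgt
MIR171b: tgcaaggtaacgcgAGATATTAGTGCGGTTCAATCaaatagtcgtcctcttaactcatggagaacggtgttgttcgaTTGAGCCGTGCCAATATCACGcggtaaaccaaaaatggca
MIR171c: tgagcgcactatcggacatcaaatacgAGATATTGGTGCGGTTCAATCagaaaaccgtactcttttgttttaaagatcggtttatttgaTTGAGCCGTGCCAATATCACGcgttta
*MIR170* (AT5G66045) lies on chromosome 5 from 26411580 to 26411672, minus strand, and *MIR171a* (AT3G51375) on chromosome 3 from 19073434 to 19073556, plus strand. *MIR171b* (AT1G11735) and *MIR171c* (AT1G62035) lie on the minus strand of chromosome 1, from 3961348 to 3961464 and from 22930089 to 22930204. No other annotated gene overlapped any of the 4 precursors, which are 93 to 123 bases long.

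These sequences bear on every value that follows. The authors' counts came from the gene counting of STAR, which takes in a read only if it maps to 1 place. Of the 8 arms, miR170-3p, miR171b-5p and miR171c-5p each occurred at 1 place in TAIR10.1. The 5p arm of *MIR170* and *MIR171a* occurred at 2 places, as did the 3p arm of *MIR171b* and *MIR171c*. miR171a-3p occurred at 4 places, which were its own locus and, in antisense, the 3 *SCL6* genes. Reads of exactly these 3 sequences are therefore in none of the values of the 4 loci. A read of miR171a-3p with 1 more base at its 3′ end, or with both ends shifted by 1 base, matched 1 place exactly. Whether such reads were counted was not tested. The search was of full-length exact matches, and the study's mapping settings name no end-to-end mode, so a clipped read may also match the *SCL6* genes. By contrast, 21-base windows shifted by up to 2 bases from miR171b-3p or miR171c-3p all occurred at 2 places. Along the precursors 68 of 73 windows of *MIR170*, 97 of 103 of *MIR171a*, 92 of 97 of *MIR171b* and 91 of 96 of *MIR171c* occurred once. The table does not say which arm a read came from. The values below thus measure the uniquely mapping reads of each locus and not the abundance of mature miR171, and the plants are Landsberg whereas TAIR10.1 is Columbia.

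**Figure D1:**
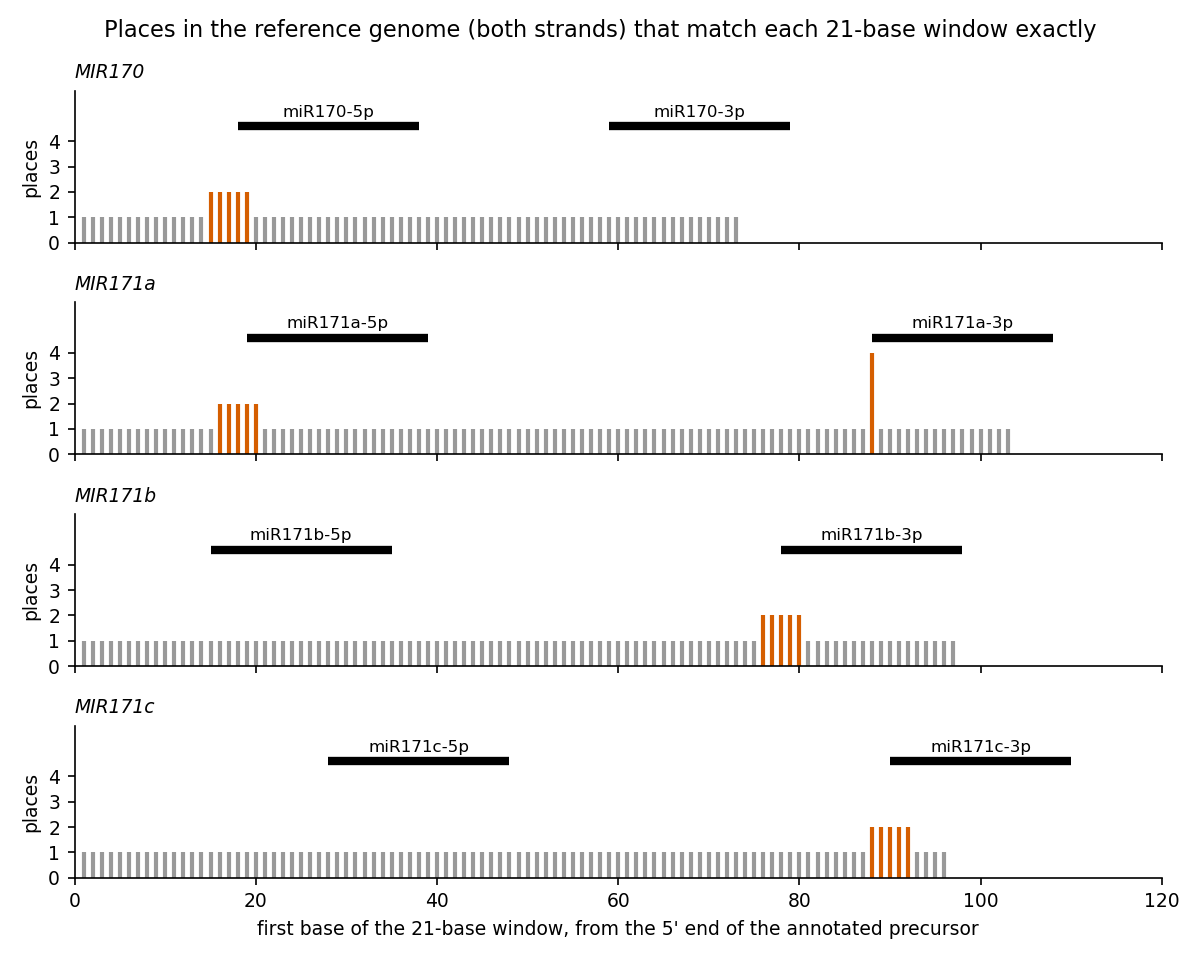
Number of places in TAIR10.1 (y axis, both strands) that match each 21-base window of the 4 precursors exactly, by the first base of the window (x axis). Black bars mark the annotated arms and orange lines windows with more than 1 place, which lie at the 5p arm of MIR170 and MIR171a (2 places), at the 3p arm of MIR171b and MIR171c (2 places) and at miR171a-3p itself (4 places).

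Values are RPM, the reads of a locus scaled to the mapped reads of the library, as the authors deposited them. The step between low values is the RPM of 1 read, so depth could be estimated, at 926300 to 2142752 mapped reads for the inflorescence libraries and 148673 to 366691 for those of seedlings. A single read was worth 0.467 to 1.08 RPM in the inflorescence libraries, against 2.73 to 6.73 RPM in the shallower seedling libraries. A count of 0 in a library allows up to the RPM of 3 reads, and such limits and the intervals on reads cover counting error only. The summed RPM of the *MIR156* and *MIR157* loci, which mark the juvenile vegetative phase, was 14.1 to 51.7 in inflorescence libraries and 259 to 362 in seedlings. That of the *MIR172* loci, which mark the adult and reproductive phases, was 12.7 to 61.0 in inflorescence libraries, against 0 to 6.73 in seedlings. The highest of these seedling sums is 1 read, in replicate 2, so the *MIR172* loci were near the limit of detection in seedlings. Within the first sum *MIR157d* went the other way. On log2(RPM + 1) it was higher than in seedlings by 3.33 on day 0 and by 3.83 on day 8. The deposited table gives a sequencing run for the first library of each block only, and this run was carried forward to the rest of the block. On that reading, run followed the stages, with seedlings in run 1, day 0 and day 2 in run 2, and day 4 and day 8 in run 3. For all comparisons other than day 2 against day 0 and day 8 against day 4, run and stage cannot be told apart. The methods of the study call the replicates biological, while the labels do not say whether they came from separate plants or pools.

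All 4 loci were of low abundance. Together they took 211 estimated reads over the 10 inflorescence libraries, 80 of them from *MIR171b*, 70 from *MIR171c*, 36 from *MIR170* and 25 from *MIR171a*. This was 0.0328% to 0.111% of the miRNA gene reads of a library. The largest single value was 19 reads, 15 of the 40 inflorescence values rested on 3 reads or fewer and 3 of these were 0. In seedlings the 4 loci took 3 reads in all and 9 of 12 values were 0. RPM was not divided by length, so no order of the loci is read from these counts.

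By summed RPM, the loci were highest together on day 8. Their summed RPM averaged 13.7 ± 0.114 for day 0 (SD, n = 2), 10.5 ± 0.226 for day 2 (n = 3), 10.1 ± 0.605 for day 4 (n = 2) and 23.1 ± 8.49 for day 8 (n = 3). The lowest day 8 library, at 16.5, lay above the highest of the 7 other inflorescence libraries, at 13.8. As a share of miRNA gene reads this gap was very small, with 0.0528% in day 8 replicate 3 and 0.0525% in day 0 replicate 2. Taken singly, *MIR171b* and *MIR171c* overlapped between day 8 and day 0. The sum is a description, and no test was made of it. The wide spread of day 8 came mainly from replicate 1, with 32.7 RPM, of which *MIR171b* took 16.4. In bulk tissue, fewer cells that make a miRNA and less of it per cell cannot be told apart.

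**Figure D2:**
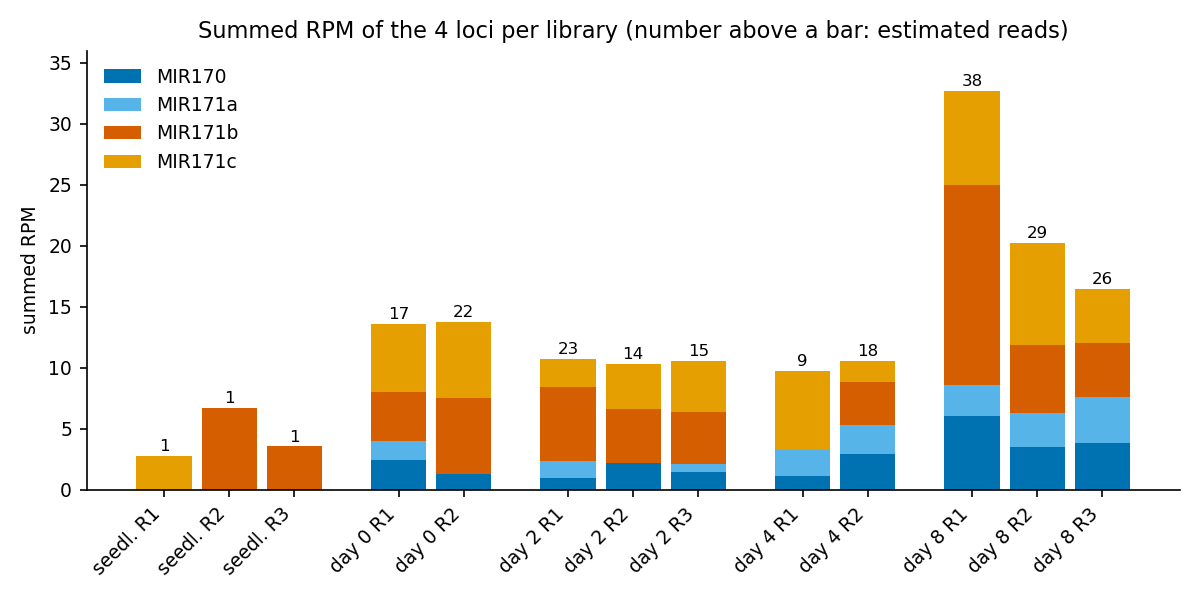
Summed RPM of the 4 loci (y axis) in each library (x axis), stacked by locus, with the estimated reads above each bar. The 3 day 8 libraries hold 26 to 38 reads and 16.5 to 32.7 RPM, the other inflorescence libraries 9 to 23 reads and 9.72 to 13.8 RPM, and each seedling library 1 read.

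*MIR170*, the locus whose 3p arm is unique to it, stayed at 1 to 5 reads per library until day 4. It had 2.40 and 1.25 RPM on day 0, 0.933, 2.20 and 1.41 RPM on day 2, 1.08 and 2.94 RPM on day 4, and 6.03, 3.49 and 3.81 RPM on day 8. All 3 day 8 libraries lay above the 7 earlier ones, and the earlier stages overlapped with each other. Of all 137 tested miRNA genes, 28.5% were likewise without overlap and higher on day 8 than on day 2, 34.3% on day 8 than on day 0, and 28.5% on day 8 than on day 4. By limma on log2(RPM + 1), *MIR170* rose on day 8 against day 2, by 1.11 (SE 0.43, adjusted p = 0.048, Benjamini-Hochberg over the 137 genes). In that comparison 23.4% of genes passed the test as higher. On reads this was 18 on day 8 and 7 on day 2, a ratio of 3.03 per mapped read (95% exact counting interval 1.21 to 8.59). The call was lost without any one of 7 libraries, which were both of day 0, day 2 replicates 1 and 3, and all 3 of day 8. Over these the difference was 0.92 to 1.24 and the limma adjusted p 0.053 to 0.15. It was also lost under all 3 other scalings (median-ratio 0.89, limma adjusted p = 0.093). Against day 4 and day 0 the differences were 0.90 (limma, adjusted p = 0.26) and 0.95 (adjusted p = 0.16) and did not pass.

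The 3p arm of *MIR171a*, the exact complement of the *SCL6* site, occurred at 4 places and its 5p arm at 2. Counted here without reads of exactly either arm, *MIR171a* was the sparsest locus in reads. It had 1.60 and 0 RPM on day 0, 1.40, 0 and 0.705 RPM on day 2, 2.16 and 2.35 RPM on day 4, and 2.58, 2.79 and 3.81 RPM on day 8. Both day 4 libraries lay above every library of day 2, and all 3 day 8 libraries lay above every library of day 0 and day 2. For day 4 against day 2, 21.2% of the 137 genes were higher without overlap. For day 8 this share was 28.5% against day 2 and 34.3% against day 0. *MIR171a* rose on day 8 against day 2, by 1.33 (SE 0.46, limma adjusted p = 0.027), from 13 reads on day 8 and 4 on day 2. The ratio per mapped read was 3.83 (exact counting interval 1.18 to 16.1). Without day 2 replicate 2, one of the libraries at 0, the difference was 0.99 and no longer passed (limma adjusted p = 0.13). It also did not pass without day 8 replicate 2 (1.38, adjusted p = 0.063) or replicate 3 (1.20, adjusted p = 0.088), or under the 3 other scalings (median-ratio 1.10, adjusted p = 0.076). The day 4 against day 2 difference, 1.02, did not pass (limma adjusted p = 0.21), nor did day 8 against day 4, at 0.31 (adjusted p = 0.82). Day 8 against day 0 gave 1.32 (limma adjusted p = 0.059), and passed only without day 0 replicate 1 (2.01, adjusted p = 0.027).

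**Figure D3:**
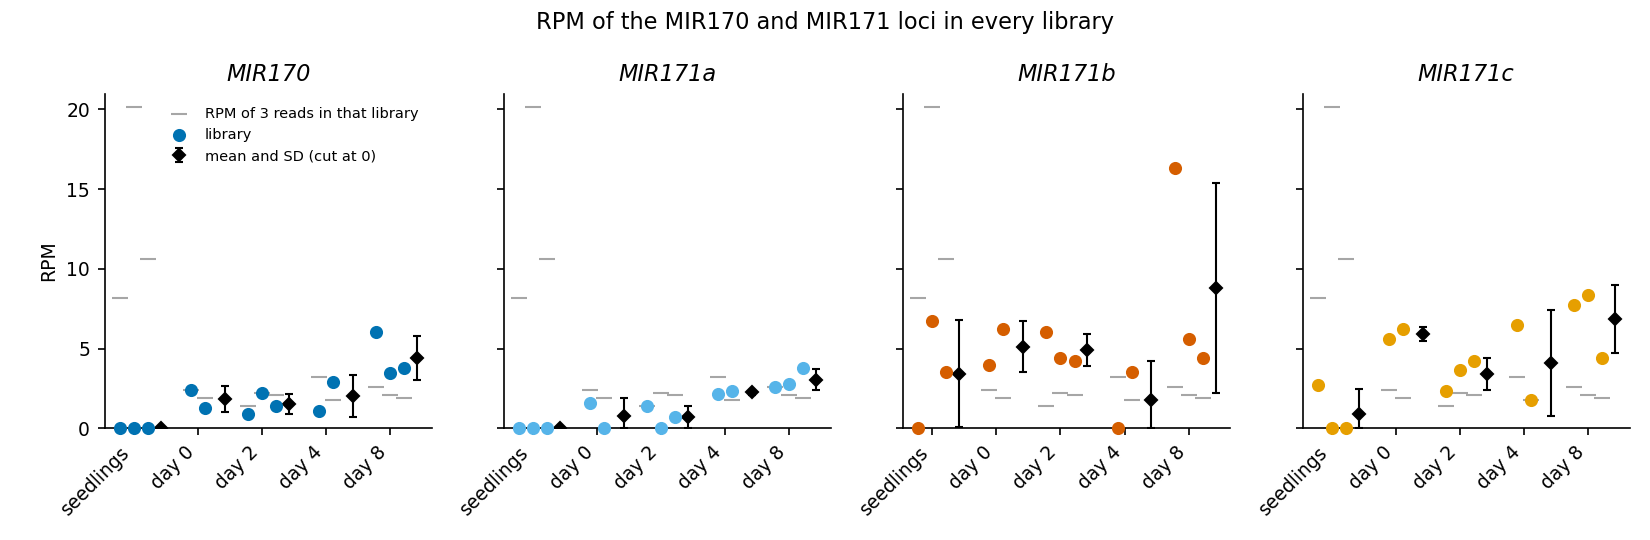
RPM (y axis) of the 4 loci in seedlings and on days 0, 2, 4 and 8 (x axis), 1 point per library, with mean and SD as black diamonds and the RPM of 3 reads in each library as a grey dash. MIR170 lies at 3.49 to 6.03 RPM on day 8 and at or below 2.94 RPM on earlier days, whereas MIR171b on day 8 ranges from 4.44 to 16.4 RPM, and most seedling points are at 0 under dashes of 8.18 to 20.2 RPM.

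*MIR171b*, counted here without reads of exactly its mature 3p arm, had the largest change of the 4 loci between inflorescence stages and the largest spread. It had 4.00 and 6.25 RPM on day 0, 6.07, 4.41 and 4.23 RPM on day 2, 0 and 3.52 RPM on day 4, and 16.4, 5.58 and 4.44 RPM on day 8. Day 4 lay below all libraries of day 2 and day 8, and of the day 8 libraries only replicate 1 stood outside the range of day 0 and day 2. *MIR171b* rose on day 8 against day 4, by 2.00 (SE 0.56, limma adjusted p = 0.015), the only member to pass in a comparison within 1 sequencing run as the runs were read here. There 11.7% of the 137 genes passed as higher and 28.5% were higher without overlap. The reads were 34 on day 8 and 6 on day 4, a ratio of 3.57 per mapped read (exact counting interval 1.48 to 10.4). Much of the difference rested on day 4 replicate 1, the shallowest inflorescence library, where 0 reads allow up to 3.24 RPM. Without it the difference was 0.92 (limma adjusted p = 0.46). Without day 8 replicate 1 it was 1.49 (limma adjusted p = 0.12), and without day 2 replicate 2, which enters only through the shared spread, it was 2.00 (adjusted p = 0.053).

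Day 4 was also where *MIR171b* was lowest relative to day 2, with a difference of -1.46 (SE 0.56) that did not pass (limma adjusted p = 0.084). There 15.3% of genes were lower without overlap. The 6 reads of day 4 and the 25 of day 2 gave a ratio of 0.449 (exact counting interval 0.151 to 1.12). Without day 4 replicate 2, which leaves only the library at 0, the difference was -2.55 (limma adjusted p = 0.0016). Over the 4 stages in 1 F test, *MIR171b* was the only member to pass, with a range of stage means of 2.00 on the log2 scale (limma adjusted p = 0.042). The share of all 137 genes that passed this test and changed over 2-fold was 27%. The call was lost under 7 other settings and without any one of 8 libraries, namely both of day 0, all 3 of day 2, day 4 replicate 1 and day 8 replicates 1 and 2 (limma adjusted p 0.052 to 0.49). *MIR171a* (limma adjusted p = 0.062), *MIR170* (adjusted p = 0.16) and *MIR171c* (adjusted p = 0.29) did not pass. The unadjusted limma p of *MIR171a* in this F test was 0.021. The study marked *MIR171a* as changed without day 0 and with no stated adjustment, so its threshold and stages differ from those used here. In its loops of the MADS-domain factor SEP3 with *SCL6-IV*, *MIR170* and *MIR171b* were not so marked, and the evidence listed was of binding only. For *MIR171a* and *MIR171b* the outcome here was thus the other way round.

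*MIR171c*, which makes the same 3p molecule as *MIR171b*, passed no test between inflorescence stages. It had 5.60 and 6.25 RPM on day 0, 2.33, 3.67 and 4.23 RPM on day 2, 6.48 and 1.76 RPM on day 4, and 7.75, 8.37 and 4.44 RPM on day 8. All 3 libraries of day 2 lay below those of day 0 and below those of day 8, while day 4 spanned nearly the whole range. For day 2 against day 0, 13.9% of the 137 genes were lower without overlap, and for day 8 against day 2, 28.5% were higher without overlap. The differences were -0.67 on day 2 against day 0 (SE 0.46, limma adjusted p = 0.67) and 0.82 on day 8 against day 2 (SE 0.41, adjusted p = 0.13). Day 8 against day 4 gave 0.75 (95% interval -0.21 to 1.71) and day 8 against day 0 gave 0.14 (-0.81 to 1.10). The 0.75 was 0.03 without day 4 replicate 2 and 1.47 without day 4 replicate 1, and passed in neither case (limma adjusted p = 1.0 and 0.095). The interval against day 0 leaves room for a change of either sign. Its day 4 against day 2 difference, 0.07, was -0.65 without day 4 replicate 1 and 0.79 without day 4 replicate 2.

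As a group, none of the 4 loci passed for day 2 against day 0, where 0% of the 137 genes passed in limma and 11 had an unadjusted p under 0.05. None passed for day 4 against day 2, where 12.4% of genes did. For day 8 against day 4, 1 of 4 passed, for day 8 against day 2, 2 of 4, and for day 8 against day 0, none, beside 14.6%, 36.5% and 28.5% of all genes in either direction. The direction on day 8 was shared, and all 4 differences were above 0 against each earlier day. Their median was 0.82 against day 4, 0.97 against day 2 and 0.72 against day 0, and over all 137 genes it was 0.15, 0.20 and 0.17. These 3 comparisons share the day 8 libraries. With median-ratio scaling the all-gene median moved to 0.04 against day 4, -0.03 against day 2 and -0.05 against day 0. With that scaling *MIR171c* turned to -0.13 on day 8 against day 0, and neither call of day 8 against day 2 held.

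**Figure D4:**
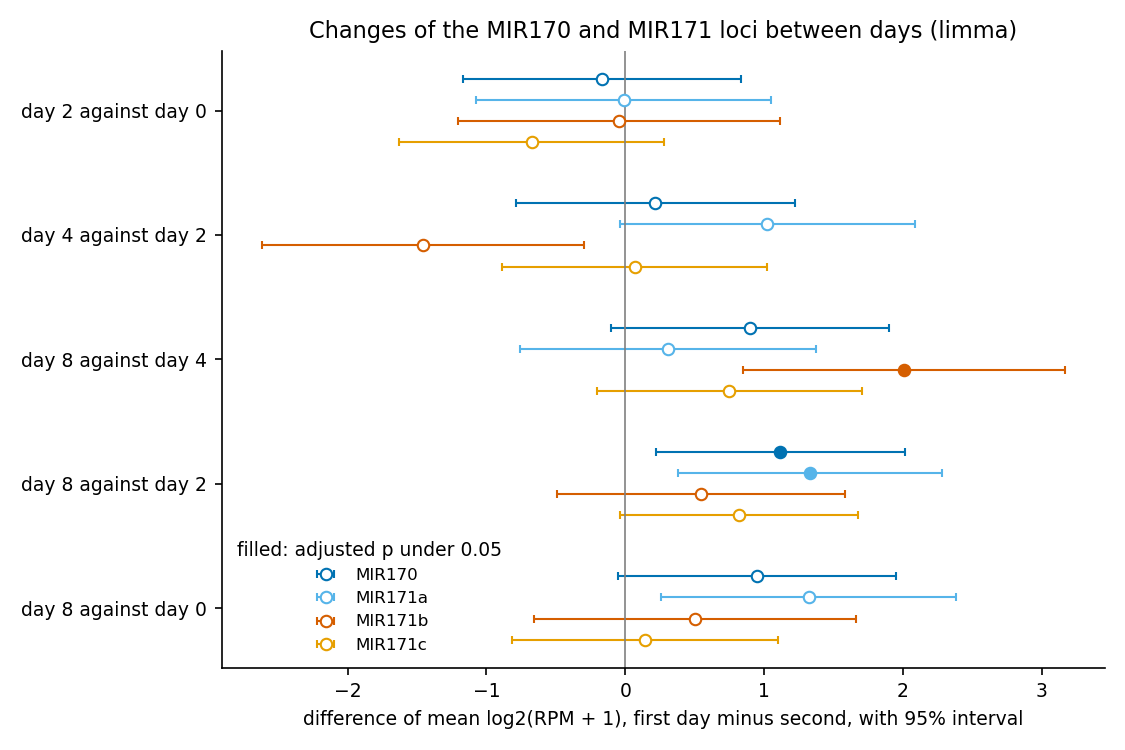
Differences of mean log2(RPM + 1) between days (x axis, first-named day minus second) for the 4 loci, with 95% intervals from limma. Filled points passed at an adjusted p under 0.05, which are MIR171b on day 8 against day 4 (2.00) and MIR170 (1.11) and MIR171a (1.33) on day 8 against day 2.

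The courses of the members were not shown to differ from each other. For each of the 6 pairs, the difference of log2(RPM + 1) within a library was compared over the 4 stages by an exact permutation test (25200 arrangements, two-sided by construction). The smallest p was 0.12, for *MIR171b* and *MIR170* (adjusted over 6 pairs, 0.45). *MIR171b* exceeded *MIR170* by 1.12 on day 0, 1.25 on day 2 and 0.68 on day 8, and was 0.43 below it on day 4 (mean difference -0.43). For *MIR171b* and *MIR171a* the exact permutation p was 0.15 (adjusted 0.45), and for *MIR171b* and *MIR171c* it was 0.59 (adjusted 0.71). A p of this size does not show that the loci ran alike.

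Across the 10 inflorescence libraries, *MIR170* correlated with *MIR171a* and with *MIR171b* at r = 0.54 each on log2(RPM + 1). *MIR171b* correlated with *MIR171c* at r = 0.07 and with *MIR171a* at r = -0.06, and *MIR171a* with *MIR171c* at r = 0.10. The genes most like *MIR170* were *MIR863* (r = 0.95), *MIR839* (0.94) and *MIR398a* (0.88). Those most like *MIR171a* were *MIR162b* (0.87), *MIR158b* (0.81) and *MIR848* (0.73). Those most like *MIR171b* were *MIR156c* (0.85), *MIR853* (0.73) and *MIR157d* (0.69), and for *MIR171c* they were *MIR5666* (0.79), *MIR157c* (0.71) and *MIR156a* (0.69). All points share the same 10 libraries with their depth and stage, the highest values over all tested genes are picked for each locus, and the member values are a few reads, so these are descriptions only.

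The age-pathway loci give a comparison list for the same libraries. It holds the 19 loci of *MIR156* and *MIR157*, which repress *SPL* genes and hold plants in the juvenile phase, and of *MIR172*, which represses *AP2*-like genes and promotes flowering. Of these, 8 were tested between inflorescence stages. On day 8 against day 2, 3 rose and 2 fell (limma, adjusted p under 0.05), with a median of 0.19, where 36.5% of all 137 genes passed. The risers were *MIR156a* (2.21), *MIR157c* (1.71) and *MIR157d* (1.67), and *MIR172d* (-1.48) and *MIR172e* (-1.26) fell. These names were chosen after their values were seen. On day 8 against day 4, 2 rose and 1 fell, where 14.6% of all genes passed in either direction. Between day 0, day 2 and day 4 none passed in either neighbouring comparison, where 0% and 12.4% of all genes did.

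In seedlings the family was near the limit of detection. *MIR170* and *MIR171a* had 0 RPM in all 3 libraries, *MIR171b* had 0, 6.73 and 3.55 RPM and *MIR171c* had 2.73, 0 and 0 RPM, where each value above 0 is 1 read. A count of 0 allows up to 8.18 to 20.2 RPM in a seedling library and 3.76 RPM over the group. By limma over all 13 libraries (153 genes tested), *MIR170* was higher on day 0 than in seedlings by 1.47 (SE 0.45, adjusted p = 0.017) and *MIR171c* by 2.16 (SE 0.62, adjusted p = 0.013). On day 8 against seedlings *MIR170* (2.41, limma adjusted p = 0.00020), *MIR171a* (2.01, adjusted p = 0.0014) and *MIR171c* (2.30, adjusted p = 0.0036) passed. In these comparisons 30.1% and 34.6% of all genes passed as higher, and run and tissue cannot be told apart. The day 0 calls of both loci were lost without day 0 replicate 1 (*MIR170* 1.17, limma adjusted p = 0.13, *MIR171c* 2.23, adjusted p = 0.063), and that of *MIR171c* also without day 0 replicate 2 (2.09, adjusted p = 0.073).

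The log2 values above depend on the added 1 RPM where seedlings are at 0, and the reads allow much less. Every day 0 value of *MIR170*, at most 2.40 RPM, and the day 8 value of *MIR171a*, 3.12 RPM over the pooled reads, lay below the 3.76 RPM that 0 reads allow, so no difference from seedlings was detectable at this depth. *MIR170* had 18 reads on day 8 and 0 in seedlings, and the 95% exact counting interval of this ratio reached down to 0.841, so the reads do not settle that difference either. *MIR171c* had 17 reads on day 0 and 1 in seedlings, a ratio of 4.76 per mapped read (95% exact counting interval 0.746 to 199), and on day 8, with 28 reads, the ratio was 5.35 (0.885 to 219). *MIR171b* did not pass on day 0 (0.88, limma adjusted p = 0.42) or on day 8 (1.38, adjusted p = 0.15) against seedlings. The day 8 difference ran from 0.53 without seedling replicate 1 (limma adjusted p = 0.56) to 2.00 without seedling replicate 2 (adjusted p = 0.033), and was 0.87 without day 8 replicate 1 (adjusted p = 0.43). Of the 10 age-pathway loci tested in this fit, 2 rose (*MIR157d* and *MIR172d*) and 5 fell on day 0 against seedlings. In that comparison 30.1% of all 153 genes passed as higher. The largest differences of the age-pathway loci were -6.29 for *MIR157c*, -5.70 for *MIR156a* and 5.52 for *MIR172d*. These loci were named after their values were seen.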

How the data were processed

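Small RNA reads of 13 libraries had been trimmed with Trim Galore, mapped to TAIR10 with STAR and counted per miRNA gene by the authors, who deposited RPM (reads scaled to the mapped reads of each library). No version is given in the sources used here for either tool. The deposited table has 325 miRNA genes, of which 216 were above 0, and 5 pooled columns that were not used. A further 3 columns belong to no sample here and were left out. A deposited table of the same RPM after quantile normalization by the authors served as an alternative only, also as log2(value + 1). Labels and methods differ on the RNA extraction, the library kit and the DEX dose, so none is stated. Low RPM values were whole multiples of 1 step (tolerance 0.1), which gave estimated reads. In 7 libraries fewer than 100 such values were found, and no count model was fitted. Replicates differed by more than sampling noise (chi-square per degree of freedom 2.54 to 12.3 over 11 pairs), and each was kept as 1 sample.

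Changes were tested with limma 3.58.1 (R 4.3.3, intensity trend) on log2(RPM + 1) for genes of at least 1 RPM in at least 2 libraries, 137 in the fit of 10 inflorescence libraries and 153 in that of 13, with Benjamini-Hochberg adjustment and a threshold of 0.05. The added 1 RPM understates changes of low genes. The procedure was also run on simulated data with the same spread setting for all genes and no run effect. That run does not settle how often a change of these loci would be found. Pair differences were tested by exact permutation (numpy 2.4.6). The exact counting intervals and the chi-square values came from scipy 1.17.1. Named are the 4 loci and, for each, the 3 tested genes with the highest Pearson r. Alternatives were the pseudocount (0.5 or 5), no filter or a minimum of 10 RPM, no trend, 3 scalings, the replicate number as a block, seedlings in the fit, and each library left out. Members and lists were chosen with earlier results of these data known. Sequences and places came from RefSeq TAIR10.1, searched exactly on both strands.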

Additional observations from a re-analysis of the deposited data

How the results depend on the processing

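Of the stage comparisons, only the 3 calls of day 8 against seedlings held under all settings run, and those rest on seedlings with at most 1 read per locus. The 2 calls of day 8 against day 2 became 0 with median-ratio, TMM or quantile scaling and 1 with a pseudocount of 0.5, with no filter, with the replicate block or with seedlings in the fit. Leaving out each library gave 0 to 2 calls there, 0 to 1 for day 8 against day 4, day 8 against day 0, day 4 against day 2 and the F test, and 0 to 2 for day 0 against seedlings. The 1 call of day 8 against day 4 became 0 without the trend, with quantile-normalized values or with seedlings in the fit. The 1 call over the 4 stages became 0 with pseudocounts of 0.5 and 5, without the trend, with each of the 3 scalings and with seedlings in the fit. The 2 calls of day 0 against seedlings became 1 with a pseudocount of 5. No setting gave a call among the 6 pairs of loci. No locus reached 10 RPM in 2 libraries, so that filter gave no value. Where 1 library was left in a group, it was assumed to vary like the others.

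Deviations from the group means showed no pairing by replicate number (13 same-numbered pairs, r -0.17 to 0.15, 24 other pairs, r -0.15 to 0.17). Of the 10 libraries, 1 was closest to its own number. In groups of 2 libraries these deviations mirror each other, so a pairing is not excluded. As a block the replicate numbers gave 1 call for day 4 against day 2, *MIR171b* at -1.66 (limma adjusted p = 0.019). The block also turned *MIR171b* to 0.16 on day 2 against day 0. Signs also turned for *MIR171a* on day 2 against day 0 (0.030 with a pseudocount of 0.5, 0.052 with median-ratio, 0.057 with TMM and 0.073 with quantile scaling) and on day 8 against day 4 (-0.075, quantile). *MIR171c* turned on day 4 against day 2 (-0.067 median-ratio, -0.032 TMM) and on day 8 against day 0 (-0.13 median-ratio, -0.10 TMM, -0.18 quantile). Without single libraries, *MIR170* ranged from -0.47 to 0.13 on day 2 against day 0 and from -0.24 to 0.68 on day 4 against day 2. On day 2 against day 0, *MIR171a* ranged from -0.70 to 0.68 and *MIR171b* from -0.31 to 0.23. On day 8 against day 0, *MIR171b* ranged from -0.0090 to 0.83 and *MIR171c* from -0.0040 to 0.39, and on day 4 against day 2 *MIR171c* from -0.65 to 0.79. None of these sign changes passed the test, and the cause was not tested.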
